A study of Homo sapiens with 12 samples.

Results

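The genes described here are 9 feedback genes of stimulated cells: the immediate early response genes IER2, IER3 and IER5, the RNA-binding ZFP36, ZFP36L1 and ZFP36L2, the antiproliferative BTG1 and BTG2, and PHLDA1. They were chosen by name, with earlier results of these data known. All 9 were found among the 55782 gene symbols of the count table and passed the filter on low counts that left 15535 genes for testing. RNA came from a co-culture of 2 human cell lines, the Jurkat T cell leukaemia line engineered to carry the inhibitory receptors LAG3 and PD1, and the Raji B cell lymphoma line engineered to display PDL1, the ligand of PD1. SED, a staphylococcal superantigen that bridges B cells and T cell receptors, was put on the Raji cells at 100 ng/ml in every group, and the co-culture lasted 24 h.

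There were 4 antibody arms: anti-PD1 together with anti-LAG3 (called the combination), anti-LAG3 with isotype antibody, anti-PD1 with isotype antibody, and isotype antibody in place of both. The anti-PD1 antibody was MK3475 and the anti-LAG3 antibody MK4280. Doses were 0.01, 0.1 and 1 µg/ml per antibody, and a single-antibody arm received isotype antibody at the same dose. Every condition has 1 library, 12 in all. Each library was made from several wells pooled, and nothing in the labels calls any library a replicate of another. The p-values therefore reflect only how these libraries scatter around the fitted models, and that scatter may be technical. The libraries held 23593973 to 36581754 counts, the highest being isotype at 1 µg/ml. All 24 Jurkat T cell markers and all 28 Raji B cell markers had counts in every library. The mean log2 level of the T cell markers minus that of the B cell markers was -1.51 to -1.39 in the combination, -1.37 to -1.29 in anti-LAG3, -1.60 to -1.39 in anti-PD1 and -1.56 to -1.53 in isotype. In such bulk RNA, fewer cells of a type and less RNA per cell cannot be told apart, nor can the share of each line in a gene's counts.

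Immediate early genes are transcribed within minutes of receptor signalling, without new protein synthesis, mostly through serum response factor, ternary complex factors and CREB acting downstream of ERK and calcium signals. Many of the resulting mRNAs carry AU-rich elements in the 3′ UTR and are short-lived. ZFP36 proteins bind those elements, and BTG proteins bind the CAF1 deadenylases, so both families bring the CCR4-NOT complex to mRNAs and shorten their poly(A) tails. In T cells ZFP36 family and BTG proteins are known as brakes on activation and proliferation.

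The 3 ZFP36 genes and PHLDA1 carry the AU-rich nonamer TTATTTATT in their own 3′ UTR, as does IER5. The stretches printed here show those letters in IER5, ZFP36 and PHLDA1. In the GENCODE 29 transcripts, IER5 held 3 overlapping copies of the nonamer and ZFP36, ZFP36L1, ZFP36L2 and PHLDA1 held 1 each. Any copy was held by 8.21% of 19120 protein-coding genes with a 3′ UTR, whose median 3′ UTR had 1105 bases. The 3′ UTR had 3013 bases in IER5, 713 in ZFP36, 2828 in ZFP36L1, 1917 in ZFP36L2 and 4672 in PHLDA1. A longer 3′ UTR has more room for a match, and length was not adjusted for. IER3 held no nonamer but 6 copies of the pentamer ATTTA, at 6.64 per kb of 3′ UTR against a median of 1.48 per kb over those genes, and 67.6% of the genes held at least 1 pentamer. BTG1 and BTG2 held no nonamer, and their pentamers stood below that median at 1.315 and 0.924 per kb. IER2 held neither motif. Capitals mark the nonamer, or for IER3 the pentamer. The stretches lie at chr1:181092443-181092472 (plus strand) for IER5, chr19:39409196-39409225 (plus) for ZFP36, chr12:76029786-76029815 (minus) for PHLDA1 and chr6:30743655-30743684 (minus) for IER3, all in GRCh38.
IER5: gtgtcttcctTTATTTATTTATTTATTtaa
ZFP36: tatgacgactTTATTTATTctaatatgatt
PHLDA1: tgatttatgaTTATTTATTagttttttttt
IER3: ttgctcctaattaatATTTAtatgtATTTA

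The promoters of IER2, ZFP36L1 and BTG1 are shown because each of these genes had its highest level of the 12 libraries in the combination at 1 µg/ml and a motif match. The sequences are RefSeq windows of the 250 bases before the annotated start on GRCh38.p14, and 7 of the 9 genes had one. IER3 and ZFP36L2 had no window and were not searched. The search, on both strands, was for the cAMP response element TGACGTCA, its core TGACG (which lies within the full element), the ETS motif CCGGAAG, the EGR motifs GCGGGGGCG and GCGTGGGCG, the AP-1 motif TGANTCA, the CArG box and an NF-kB motif. Capitals mark the matches. IER2 (chr19:13150161-13150410, plus strand) held 1 core and 1 ETS motif, at 140 and 27 bases before the start. ZFP36L1 (chr14:68793417-68793666, minus strand) held the full element 52 bases before the start, and BTG1 (chr12:92145847-92146096, minus strand) held 2 cores.
IER2: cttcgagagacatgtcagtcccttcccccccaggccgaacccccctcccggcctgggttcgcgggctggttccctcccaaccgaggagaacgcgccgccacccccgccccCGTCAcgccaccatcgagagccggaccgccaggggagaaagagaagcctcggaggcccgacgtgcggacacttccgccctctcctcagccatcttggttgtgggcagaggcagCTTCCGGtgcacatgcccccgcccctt
ZFP36L1: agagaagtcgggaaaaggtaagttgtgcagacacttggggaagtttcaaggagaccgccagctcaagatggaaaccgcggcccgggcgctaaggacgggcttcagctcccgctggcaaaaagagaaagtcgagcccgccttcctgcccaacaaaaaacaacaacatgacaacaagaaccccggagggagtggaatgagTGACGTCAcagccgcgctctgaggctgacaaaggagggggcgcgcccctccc
BTG1: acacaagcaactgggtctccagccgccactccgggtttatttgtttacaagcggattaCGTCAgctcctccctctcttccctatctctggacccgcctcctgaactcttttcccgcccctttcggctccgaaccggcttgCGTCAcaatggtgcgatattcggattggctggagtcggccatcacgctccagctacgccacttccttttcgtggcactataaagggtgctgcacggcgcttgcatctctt

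Over 35116 RefSeq windows of the same length, 1.65% held the full cAMP response element, 21.2% the core, 8.52% the ETS motif and 5.37% an EGR motif. BTG2 held 1 core and 1 EGR motif, and a second, more distal window of ZFP36L1 held 1 core. The windows of IER5, ZFP36 and PHLDA1 held none of the motifs searched. AP-1, CArG and NF-kB letters were found in none of the 8 windows, against 6.57%, 1.16% and 9.96% of all windows. These are matches of letters in one window and say nothing of binding.

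Levels of the 9 genes spanned a wide range on a scale of TMM-scaled CPM, a gene's counts relative to library size, divided by gene length in kb. ZFP36L2, which in mice restrains the proliferation of early lymphoid cells, and BTG2 stood at the top with means of 32.2 and 31.3 CPM per kb over the 12 libraries, and their ranges of 29.9 to 33.6 and 29.6 to 33.4 overlapped almost wholly. IER2 followed at 25.6 and IER5 at 22.0 CPM per kb, with overlapping ranges of 22.8 to 30.6 and 19.7 to 24.1. Below a gap came ZFP36L1 at 14.4, BTG1 at 11.4, IER3 at 9.98 and ZFP36 at 9.91 CPM per kb, neighbours whose ranges overlap. PHLDA1 was lowest at 0.304 CPM per kb, with no library above 0.766, and rested on 39 to 158 counts per library. The other 8 genes had at least 209 counts in each library. The order and the gap rest on the deposited gene lengths and were not computed with other lengths. Those lengths were 3072 bases for IER2 and 5160 for ZFP36L1, whose transcripts searched for AU-rich motifs had 2085 and 3094 bases. For ZFP36L2 both lengths were 3696 bases.

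**Figure D1:**
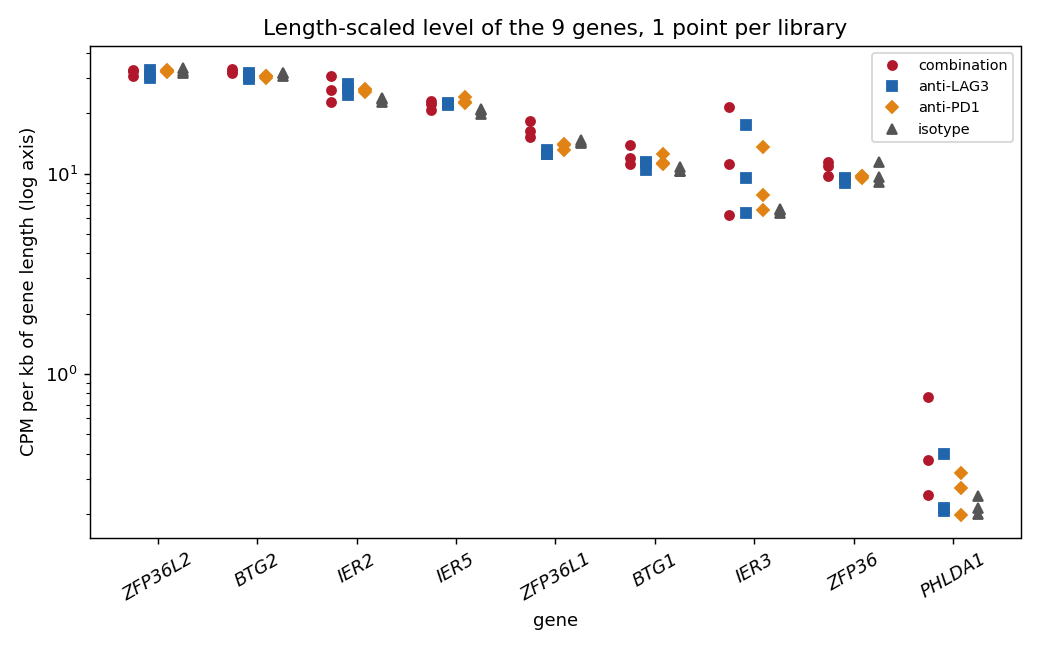
Length-scaled level (CPM per kb of gene length, log axis) of each of the 9 genes, ordered by mean, with 1 point per library and the arms side by side. ZFP36L2 and BTG2 sit near 32.2 and 31.3 CPM per kb, PHLDA1 sits below 0.766, and IER3 spreads most among the genes above it, between 6.20 and 21.4.

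IER3 was the gene of the group that rose with dose in every antibody arm. It encodes a short-lived membrane-associated protein also called IEX-1, which prolongs ERK signalling and alters cell survival under stress. The combination libraries had 8.41, 15.2 and 29.0 CPM of IER3 from low to high dose (0.01, 0.1 and 1 µg/ml). Anti-LAG3 libraries had 8.67, 12.9 and 23.7 CPM, and anti-PD1 libraries had 8.95, 10.6 and 18.5 CPM. Isotype libraries had 8.60, 9.02 and 8.96 CPM. At the lowest dose the 4 arms lay between 8.41 and 8.95 CPM, and at 1 µg/ml every antibody arm was above every isotype library, in the order combination, anti-LAG3, anti-PD1. From the lowest to the highest dose the level differed 3.45-fold in the combination, 2.73-fold in anti-LAG3, 2.06-fold in anti-PD1 and 1.04-fold in isotype.

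**Figure D2:**
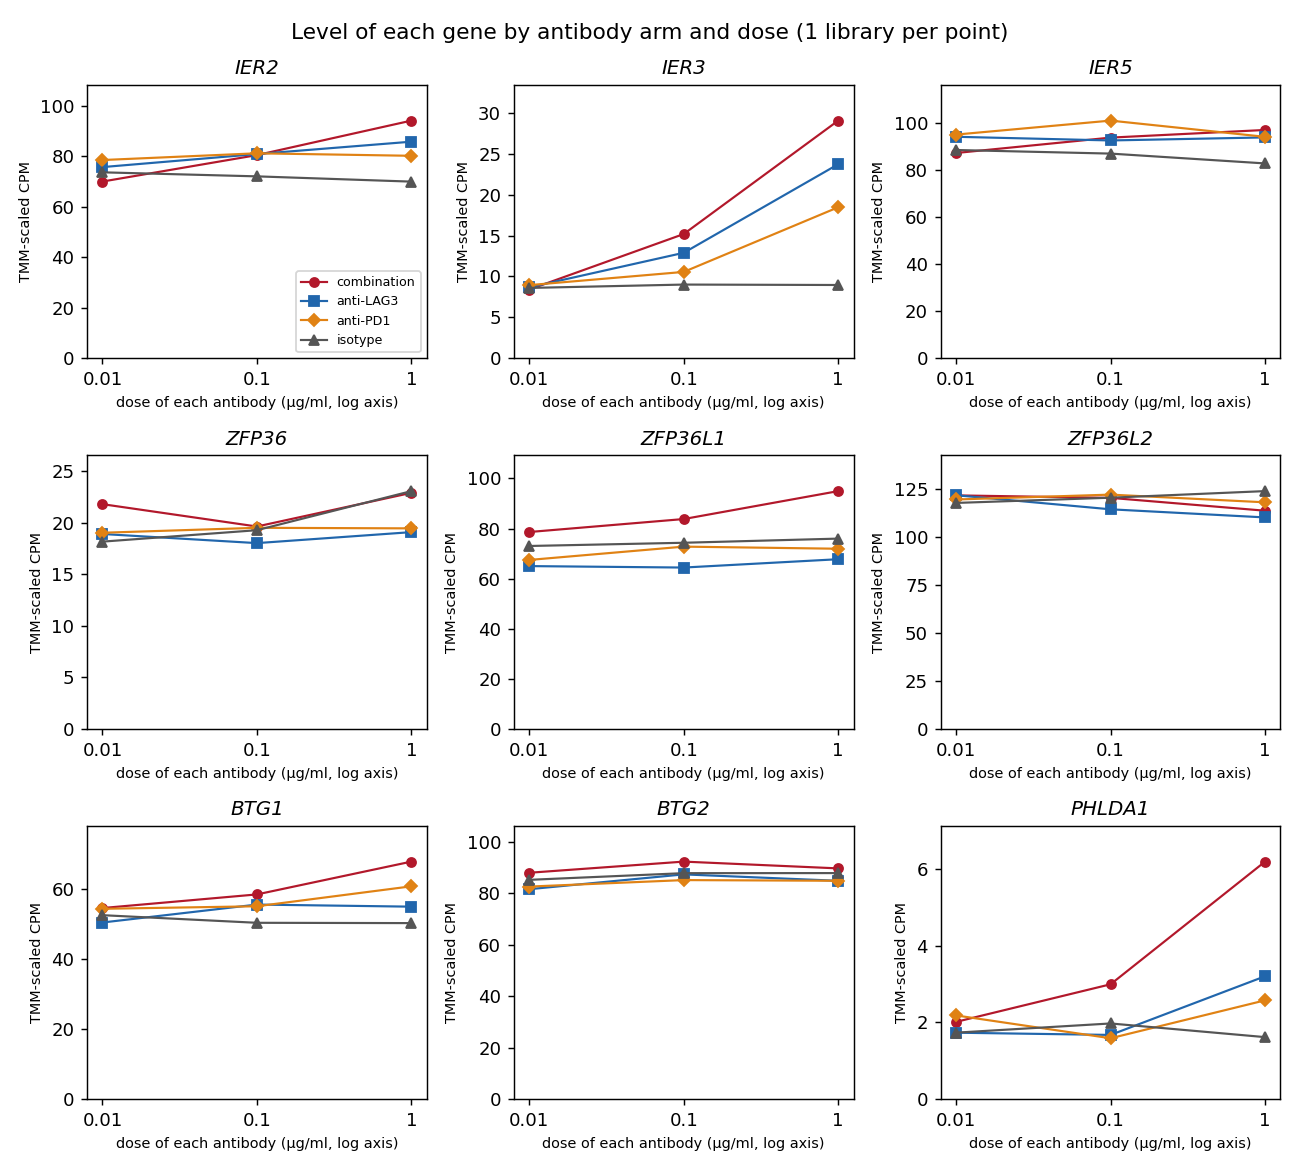
TMM-scaled CPM (linear axis from 0) of each of the 9 genes against the dose of each antibody (µg/ml, log axis), 1 library per point, with the 4 arms as lines. IER3 climbs from a shared level near 8.41 to 8.95 CPM at the lowest dose to 29.0, 23.7 and 18.5 CPM in the combination, anti-LAG3 and anti-PD1 at 1 µg/ml, PHLDA1 reaches 6.18 CPM in the combination, and isotype stays near 9 CPM for IER3.

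The dose slope of each arm minus that of isotype, in log2 units per 10-fold dose, was tested with edgeR's quasi-likelihood test and Benjamini-Hochberg adjustment over all genes, and a gene was called at an adjusted p under 0.05. The 3 antibody slopes are set against the same isotype libraries. With 1 library per condition, a bend of a dose series away from a straight line on log10 dose counts as spread. For IER3 the slope was 0.87 ± 0.11 (SE) in the combination minus isotype, with an edgeR adjusted p of 1.07e-05. It was 0.71 ± 0.11 in anti-LAG3 minus isotype, with an edgeR adjusted p of 0.00259, and 0.52 ± 0.11 in anti-PD1 minus isotype, with an edgeR adjusted p of 0.0400. By p, IER3 ranked 4 of 15535 genes in anti-LAG3, 32 in the combination and 35 in anti-PD1. Without the isotype library at 1 µg/ml, the IER3 slope was 0.83 in the combination (edgeR adjusted p 0.0577), 0.67 in anti-LAG3 (0.9996) and 0.48 in anti-PD1 (0.9998), none of them called. The anti-LAG3 call was also lost without the anti-LAG3 library at 1 µg/ml, where the slope was 0.54, and without isotype at 0.01 µg/ml, where it was 0.75. The anti-PD1 call was also lost on leaving out the anti-PD1 library of 1 µg/ml (slope 0.20), that of 0.01 µg/ml (0.78) or the isotype library of 0.01 µg/ml (0.55), and with the T minus B marker level as a covariate (0.55, edgeR adjusted p 0.198). The slope of that marker level per 10-fold dose was 0.02 for the combination, 0.04 for anti-LAG3 and 0.11 for anti-PD1, against -0.0017 for isotype.

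The IER3 slope of the combination exceeded that of anti-LAG3 by 0.16 ± 0.10, with an edgeR adjusted p of 0.645, and that of anti-PD1 by 0.35 ± 0.11, with an edgeR adjusted p of 0.168. Neither difference was called, so the order of the arms at 1 µg/ml is a description. None of the 9 genes was called in either comparison of slopes, where 0.766% of all genes were called for the combination minus anti-LAG3 and 0.644% for the combination minus anti-PD1. At an unadjusted p under 0.05 there were 1 of the 9 genes for the combination minus anti-LAG3 and 3 for the combination minus anti-PD1, against 10.5% and 9.98% of all genes.

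IER2, which encodes a nuclear protein acting in immediate early transcription, rose with dose in the combination. Its levels there were 70.0, 80.5 and 94.2 CPM at 0.01, 0.1 and 1 µg/ml. Anti-LAG3 libraries had 75.7, 80.9 and 85.8 CPM, anti-PD1 libraries 78.5, 81.2 and 80.2 CPM, and isotype libraries 73.7, 72.1 and 70.0 CPM. The combination was the lowest of the 4 arms at 0.01 µg/ml and the highest of the 12 libraries at 1 µg/ml. The slope minus isotype was 0.25 ± 0.05 in the combination (edgeR adjusted p 0.00268), 0.13 ± 0.05 in anti-LAG3 (0.508) and 0.05 ± 0.05 in anti-PD1 (0.778). The combination call was lost in all 4 fits that left out a library of the lowest or highest dose of either arm compared. These left out the combination library of 1 or of 0.01 µg/ml (edgeR adjusted p 0.161 and 0.235), or the isotype library of 1 or of 0.01 µg/ml (0.528 and 0.119). The slopes there were 0.24 to 0.26. The other 8 fits kept the call, but left out another arm's library or the middle dose, which hardly bear on this slope. The slope of the combination minus anti-PD1 was 0.20 ± 0.05, with an edgeR adjusted p of 0.0633, so it was not called. Of 12 fits that each left out 1 library, 1 called it, without anti-PD1 at 0.1 µg/ml (edgeR adjusted p 0.0357). Without anti-PD1 at 1 or 0.01 µg/ml the edgeR adjusted p was 0.407 and 0.328. Without the combination at 1 or 0.01 µg/ml it was 0.662 and 0.715. DESeq2 gave an adjusted p of 0.251, and edgeR with the T minus B marker covariate gave 0.511.

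PHLDA1, a pleckstrin homology-like domain gene first described in mouse T cell hybridomas as induced by T cell receptor signals, also rose in the combination. It had 2.02, 2.99 and 6.18 CPM in the combination at 0.01, 0.1 and 1 µg/ml, from 58, 81 and 158 counts. Anti-LAG3 libraries had 1.73, 1.68 and 3.20 CPM, anti-PD1 libraries 2.18, 1.59 and 2.58 CPM, and isotype libraries 1.74, 1.97 and 1.62 CPM. Counting error alone gave a 95% exact Poisson interval of 5.25 to 7.22 CPM for the combination and 1.23 to 2.09 CPM for isotype at 1 µg/ml. The combination at 1 µg/ml was the highest library and anti-LAG3 at 1 µg/ml came next, while the 10 others lay between 1.59 and 2.99 CPM. The slope minus isotype was 0.88 ± 0.24 in the combination (edgeR adjusted p 0.0303), 0.53 ± 0.25 in anti-LAG3 (0.615) and 0.19 ± 0.25 in anti-PD1 (0.852). DESeq2 gave the combination a slope of 0.87 with an adjusted p of 0.271. The edgeR call was lost without combination at 1 µg/ml (slope 0.62), combination at 0.01 µg/ml (1.10), isotype at 1 µg/ml (0.65) and isotype at 0.01 µg/ml (1.11).

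In all, 3 of the 9 genes were called as rising in the combination minus isotype, IER2, IER3 and PHLDA1, against 4.63% of all genes called and 1.83% called as rising. IER3 alone was called in anti-LAG3 minus isotype and in anti-PD1 minus isotype, where 0.0708% and 0.264% of all genes were called, and 0.0579% and 0.0837% as rising. The median slope of the 9 genes was 0.12 in the combination, 0.05 in anti-LAG3 and 0.04 in anti-PD1, against 0.01 over all genes in each. The 9 genes and the pathway lists below were chosen with earlier results known. Setting them against all genes, here and below, is therefore a description. No gene of the 9 was called in the slope of isotype itself, where 0.856% of all genes were called. An unadjusted p under 0.05 was found for 1 of the 9 in that slope and for 13.7% of all genes. The largest isotype slope among them was that of ZFP36 at 0.18 ± 0.06, with an edgeR adjusted p of 0.155.

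**Figure D3:**
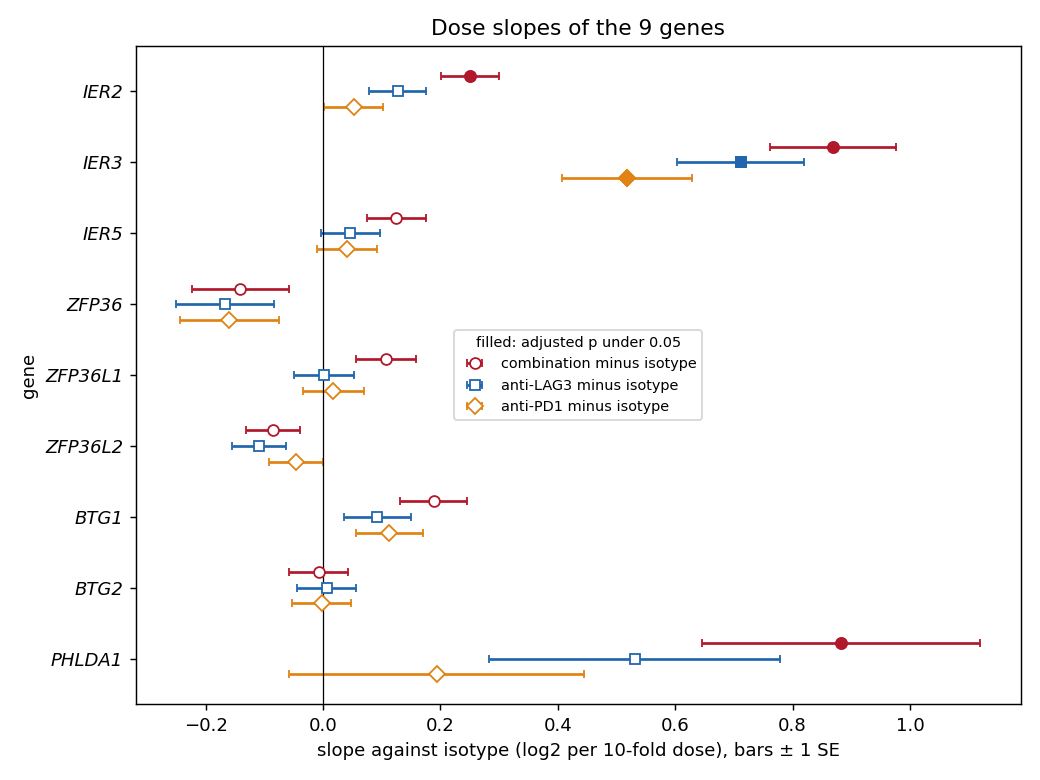
Dose slope of each antibody arm minus isotype (log2 per 10-fold dose, bars ± 1 SE from the edgeR fit) for the 9 genes, with the combination above anti-LAG3 and anti-PD1 in each row and filled symbols where the adjusted p was under 0.05. IER3 is filled in all 3 arms at 0.87, 0.71 and 0.52, IER2 and PHLDA1 are filled in the combination at 0.25 and 0.88, and the ZFP36 slopes lie left of 0 without a call.

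The BTG genes differed from each other in their values. BTG1, an antiproliferative gene that in mice helps keep resting T cells quiescent, had 54.5, 58.4 and 67.7 CPM in the combination at 0.01, 0.1 and 1 µg/ml. It had 50.4, 55.5 and 54.9 CPM in anti-LAG3, 54.3, 55.0 and 60.7 CPM in anti-PD1, and 52.5, 50.3 and 50.2 CPM in isotype. All 3 combination libraries lay above all 3 isotype libraries, and how many of all genes separate in this way was not counted. Its combination slope minus isotype was 0.19 ± 0.06 with an edgeR adjusted p of 0.0567, so it was not called. The edgeR adjusted p was 0.0342 to 0.0380 when any 1 anti-PD1 library was left out, but that arm is outside this comparison. Without the combination library of 1 or of 0.01 µg/ml it was 0.598 and 0.487. Without the isotype library of 1 or of 0.01 µg/ml it was 0.761 and 0.461. DESeq2 gave BTG1 an adjusted p of 0.319 for this slope. Taken against 0 instead of isotype, its combination slope was 0.16 ± 0.04 with an edgeR adjusted p of 0.0218.

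BTG2, which p53 and growth signals induce, ranged from 81.5 to 92.2 CPM over the 12 libraries. Its 3 libraries lay at 87.9, 92.2 and 89.6 CPM in the combination and at 85.1, 87.7 and 87.8 CPM in isotype, in each case from low to high dose. Its combination slope minus isotype was -0.01 ± 0.05 and it was called in none of the 9 comparisons.

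ZFP36L1 was the one gene of the 9 with a call in an arm mean against isotype. It is a member of the ZFP36 family with known roles in mouse B cell and T cell development. Combination libraries had 78.6, 83.8 and 94.9 CPM at 0.01, 0.1 and 1 µg/ml. Anti-LAG3 libraries had 65.0, 64.4 and 67.8 CPM, anti-PD1 libraries 67.5, 72.8 and 71.9 CPM, and isotype libraries 73.0, 74.3 and 76.0 CPM. Each anti-LAG3 and each anti-PD1 library was below all isotype libraries, and each combination library was above them. Anti-PD1 at 0.1 µg/ml (72.8 CPM) was close to isotype at 0.01 µg/ml (73.0 CPM). How many of all genes separate in this way was not counted. With dose as a term in the model, the mean of anti-LAG3 minus isotype was -0.18 ± 0.05 log2 units (edgeR adjusted p 0.0263), that of anti-PD1 minus isotype -0.07 ± 0.05 (0.467), and that of the combination minus isotype 0.20 ± 0.05 (0.171). ZFP36L1 fell in anti-LAG3, in a comparison that called 10% of all genes and 5.16% as falling. The call was lost without anti-LAG3 at 1 or 0.1 µg/ml (edgeR adjusted p 0.131 and 0.134) and without isotype at 0.1 or 0.01 µg/ml (0.128 and 0.125), at -0.18 to -0.16 log2 units. The T minus B marker level was highest in the anti-LAG3 arm, at -1.33 ± 0.04 against -1.54 ± 0.02 in isotype (SD, n = 3 libraries each). With it as a covariate the ZFP36L1 difference was -0.18 ± 0.11 and was not called (edgeR adjusted p 0.520).

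The arm-mean model counts a dose response that differs between arms as spread. This can widen the SE of genes such as IER3 and PHLDA1, so a missing call does not show equal means. Arm means of the genes other than ZFP36L1 were not called. In the anti-PD1 arm, where 3.82% of all genes were called, IER5 came nearest. IER5 is an immediate early gene that modulates heat shock factor signalling. It had 94.9, 100.9 and 94.0 CPM in the 3 anti-PD1 libraries from low to high dose and 88.4, 86.9 and 82.7 CPM in the isotype libraries. The difference was 0.17 ± 0.05 log2 units with an edgeR adjusted p of 0.0578, and the DESeq2 adjusted p was 0.0468. In the combination the arm means minus isotype were 0.24 ± 0.06 for BTG1, 1.01 ± 0.26 for PHLDA1, 0.88 ± 0.30 for IER3 and 0.18 ± 0.07 for IER2, with edgeR adjusted p of 0.174, 0.234, 0.655 and 0.612, in a comparison that called 0.00644% of all genes. At an unadjusted p under 0.05 there were 6 of the 9 genes in the combination arm mean, where 6.68% of all genes were. There were 3 of the 9 in the anti-LAG3 arm mean and 3 in the anti-PD1 arm mean, against 24.7% and 18.4% of all genes. The combination slope of IER5 minus isotype was 0.12 ± 0.05 with an edgeR adjusted p of 0.175, and its slopes in the single-antibody arms were 0.05 and 0.04.

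ZFP36, known as tristetraprolin and the best studied of the AU-rich element binding proteins, showed no call in any comparison. Combination libraries had 21.8, 19.7 and 22.9 CPM at 0.01, 0.1 and 1 µg/ml, and isotype libraries had 18.2, 19.3 and 23.1 CPM. The 6 libraries of the single-antibody arms lay between 18.0 and 19.5 CPM, and the highest level of all was in the isotype library at 1 µg/ml. The slopes minus isotype of ZFP36 were -0.14 ± 0.08 in the combination, -0.17 ± 0.08 in anti-LAG3 and -0.16 ± 0.08 in anti-PD1, with the combination's own slope at 0.03 ± 0.06. ZFP36L2 ranged from 110.4 to 124.1 CPM over the 12 libraries. It had 121.9, 120.6 and 113.9 CPM in the combination and 118.0, 120.7 and 124.1 CPM in isotype from low to high dose, and its combination slope minus isotype was -0.09 ± 0.05, with an edgeR adjusted p of 0.348.

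In the authors' deposited tables, each antibody library was set against the 3 isotype libraries as 1 group. At 1 µg/ml of the combination, the authors' deposited table gave log2 fold changes of 1.72 for IER3, 1.81 for PHLDA1, 0.42 for BTG1, 0.40 for IER2 and 0.36 for ZFP36L1. These 5 of the 9 genes had the authors' adjusted p under 0.05 (3.38e-20, 5.44e-05, 0.0107, 0.00678 and 0.0239 in the authors' deposited table), where 1.73% of genes with an adjusted p were called. At 0.1 µg/ml IER3 alone was called in the authors' deposited table, at 0.77 with an adjusted p of 0.0388 and 0.199% of genes called. At 0.01 µg/ml no gene was called in the authors' deposited table for the combination. In the single-antibody arms, IER3 at 1 µg/ml was the one call among the 9 in the authors' deposited tables, at 1.42 in anti-LAG3 (2.58% of genes called) and 1.06 in anti-PD1 (0.443%). Those tables called 2.84% of genes in anti-LAG3 at 0.1 µg/ml, 0.195% in anti-LAG3 at 0.01 µg/ml, 0% in anti-PD1 at 0.1 µg/ml and 1.45% in anti-PD1 at 0.01 µg/ml, with 0 of the 9 genes among them. The authors' deposited tables gave no adjusted p for IER3, ZFP36 and PHLDA1 in anti-LAG3 at 0.01 and 0.1 µg/ml and in anti-PD1 at 0.01 µg/ml, nor for PHLDA1 in anti-LAG3 at 1 µg/ml.

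**Figure D4:**
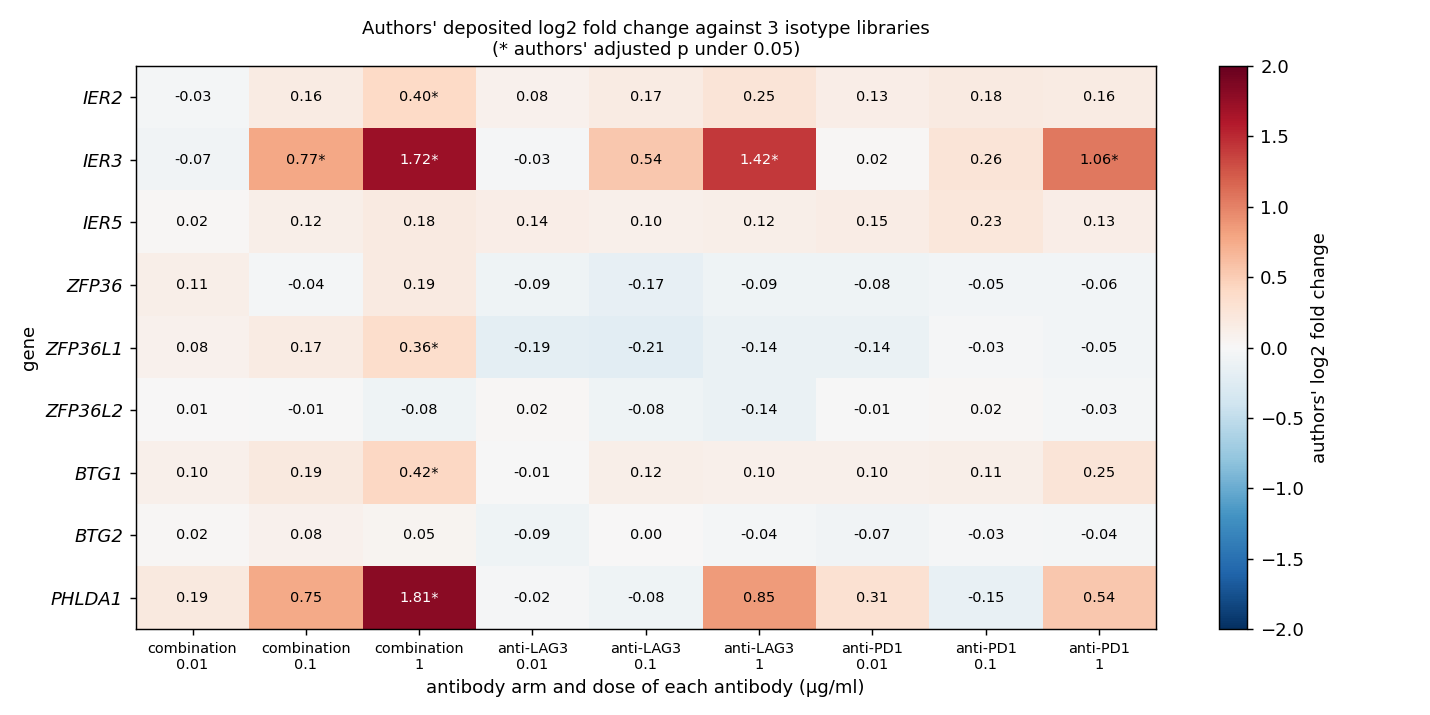
The authors' deposited log2 fold changes of each antibody library against 3 isotype libraries, for the 9 genes (rows) and the 3 antibody arms by dose (columns), with an asterisk where the authors' adjusted p was under 0.05. The asterisks of the combination at 1 µg/ml stand at IER2, IER3, ZFP36L1, BTG1 and PHLDA1 (0.40, 1.72, 0.36, 0.42 and 1.81), and IER3 is the row with an asterisk in other columns.

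Over the 12 libraries the log2 levels of the 9 genes fell into loose groups, described here without a test, since the libraries share arms, doses and sequencing depth. IER3 correlated with IER2 at a Pearson r of 0.88, with PHLDA1 at 0.86 and with BTG1 at 0.82. ZFP36L1 correlated with BTG2 at 0.75 and with ZFP36 at 0.72. ZFP36L2 ran against the first group, at -0.76 with IER3 and -0.72 with IER2.

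Among genes with a mean of at least 4 CPM, those with the pattern most like IER3 over the 12 libraries were EGR3 (r 0.98) and EGR1 (0.97), zinc finger transcription factors of the immediate early response, and TRBV12-3 (0.97), a T cell receptor beta variable segment. EGR3 had 1.46, 6.32 and 17.2 CPM in the combination at 0.01, 0.1 and 1 µg/ml and 1.92, 1.97 and 2.04 CPM in isotype, the same shape as IER3 from a lower start. For IER2 they were CD82 (0.98), a tetraspanin, DUSP2 (0.97), a nuclear phosphatase of ERK, and RAB43 (0.95). DUSP2 had 88.8, 121.8 and 170.4 CPM in the combination and 89.3, 95.4 and 80.1 CPM in isotype. For PHLDA1 they were ARHGAP9 (0.99), CD226 (0.95), a costimulatory receptor, and NR4A1 (0.94), an immediate early nuclear receptor. For BTG1 they were PREX2 (0.94), SH2D2A (0.94), a T cell adaptor, and SDCBP (0.93). For ZFP36L1 they were AFF3 (0.97), FAS (0.95), the death receptor, and SIPA1L1 (0.92). For IER5, ZFP36, ZFP36L2 and BTG2 the best matches were E2F1 (0.93), LINC01278 (0.92), CCDC92 (0.93) and PARP9 (0.91).

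Of the 5 lists of surrounding pathway genes, each had 1 to 4 genes called in the combination slope minus isotype, where 4.63% of all genes were called. Of 7 relatives of the IER5, PHLDA and BTG families, 5 could be tested. TOB1, an antiproliferative BTG relative that also binds deadenylases, was the one called in the combination slope minus isotype, at -0.29 ± 0.08 with an edgeR adjusted p of 0.0231. It had 27.2, 24.5 and 23.9 CPM in the combination and 21.3, 21.7 and 27.8 CPM in isotype, so the values of the 2 arms ran in opposite directions. Among 28 genes of deadenylation and decay, 1 was called in that slope difference, DDX6, a helicase that couples deadenylation to translational repression and decapping. DDX6 had 308.0, 273.3 and 250.6 CPM in the combination and 262.4, 312.5 and 344.9 CPM in isotype. Its slope difference was -0.35 ± 0.05 (edgeR adjusted p 2.58e-05), and its isotype slope alone was called at 0.20 ± 0.03 (edgeR adjusted p 0.00332). DDX6 was also called in the combination minus anti-LAG3 slope, at -0.22 ± 0.05. The median slope of the 28 genes was -0.08 in the combination, against 0.01 over all genes. In the arm means, 3 of the 28 fell in anti-LAG3 (PATL1, CNOT3 and PAN3), where 10% of all genes were called and 5.16% as falling. With the T minus B marker level as a covariate, the anti-LAG3 arm mean called 21 genes in place of 1560. In anti-PD1, 2 of the 28 fell (CNOT6 and PATL1) and 1 rose (EDC3), where 3.82% of all genes were called.

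Of 14 other RNA-binding proteins of unstable mRNAs, CELF1 was the one called in the combination slope minus isotype, at -0.24 ± 0.05 with an edgeR adjusted p of 0.00333. CELF1, which binds GU-rich elements, and RC3H1, the Roquin protein that degrades costimulatory mRNAs, fell in the arm means of anti-LAG3 and of anti-PD1. Their differences were -0.30 and -0.36 in anti-LAG3 and -0.30 and -0.24 in anti-PD1. The anti-LAG3 arm mean called 10% of all genes, 5.16% as falling, and the anti-PD1 arm mean called 3.82%. Of 22 tested among 28 mRNAs with AU-rich elements, 4 were called in the combination slope minus isotype, 2 with a higher and 2 with a lower slope, against 4.63% of all genes called and 1.83% with a higher slope. The slope difference was 1.03 ± 0.09 for CD69, an early activation receptor, 1.18 ± 0.27 for FOS, and -0.16 ± 0.04 for each of MYC and CCND3. FOS was low, at 22 to 130 counts per library. It had 0.90, 1.99 and 5.09 CPM in the combination and 0.90, 0.89 and 1.01 CPM in isotype from low to high dose. CD69 was also the one gene of the 22 called in the slopes of anti-LAG3 (0.66 ± 0.09) and anti-PD1 (0.66 ± 0.09), and its combination slope exceeded those of anti-LAG3 and anti-PD1 by 0.36 ± 0.09 and 0.37 ± 0.09, both called. MYC had 352.1, 330.7 and 307.8 CPM in the combination and 333.4, 342.5 and 364.4 CPM in isotype, so the values of the 2 arms ran in opposite directions. In the arm means of these 22 genes, JUNB and PIM3 rose and BCL6 fell in anti-LAG3, where 10% of all genes were called. JUNB rose in anti-PD1, where 3.82% were. Of 16 genes of serum response factor, its partners and their kinases, 1 was called in the combination slope minus isotype, the kinase gene MAPK3, at -0.34 ± 0.07 (edgeR adjusted p 0.00642). MAPK3 had 41.9, 37.2 and 33.5 CPM in the combination and 33.6, 32.0 and 42.6 CPM in isotype, so the difference joins lower levels at higher combination dose with the high isotype library at 1 µg/ml. SRF and the ternary complex factors were not called in any slope. ELK4, a ternary complex factor, fell in the arm means of anti-LAG3 and anti-PD1 at -0.33 ± 0.05 and -0.27 ± 0.05. Of the 16 genes, 3 rose and 2 fell in the anti-LAG3 arm mean, where 10% of all genes were called, and 1 rose and 2 fell in the anti-PD1 arm mean, where 3.82% were. No gene of these 5 lists was called in the arm mean of the combination.

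Some counts could be shared with overlapping genes, since the strand setting of the counting is not given in the sources used here. In GENCODE 29, IER2, IER3, BTG1 and PHLDA1 each overlap at least 1 antisense gene, and BTG1 shares bases with LINC01619 on the same strand. LINC01619 had 4 to 20 counts per library, at most 0.665 CPM. For the antisense genes no level was analysed here.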

How the data were processed

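The authors deposited raw read counts per gene symbol for 12 libraries and 9 tables of their own comparisons. Per the submitters' processing notes, the build was GRCh38 and the tools were DESeq2, STAR 2.5.2b, Trimmomatic 0.36 and featureCounts (Subread 1.5.2), with no settings. The authors' log2 fold change, p-value and adjusted p-value columns come from those tables, with isotype libraries as controls, per the file headers. The deposited length column, in bases, was used for CPM per kb. The labels call the molecule polyA RNA, while the extraction protocol names total RNA. Another 4 count columns and 36 normalised columns were not used.

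Counts were fitted with edgeR 4.0.16 in R 4.3.3 (TMM, a minimum count of 10, robust quasi-likelihood), with arm and arm-specific log10 dose as terms (4 residual degrees of freedom) or arm and dose level (6). Adjusted p-values cover all 15535 genes, and SE is the log2 value over the root of F. Log2 levels used a prior count of 2. DESeq2 1.42.0 was an alternative. The dose slope test was also run on simulated counts, with straight-line dose responses and a spread fitted to these data. That run could not show how the test handles bent dose series. The 9 genes and 5 lists were chosen with earlier results of these data known. The genes always named are the 9, the 3 most like each, and up to 4 called genes per list and comparison. Libraries of the same dose deviated together at r of -0.09 to 0.21, so doses were not taken as pairs of samples beyond the dose term. No paper was used. Intervals cover counting error only.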

Additional observations from a re-analysis of the deposited data

How the results depend on the processing

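The members' directions mostly held, while their calls did not hold in every fit. Of 1350 values of the 9 genes under an alternative, 1247 stayed on the same side of the threshold with the same sign, 23 lost a call, 21 gained one, 49 took the other sign with no call in either fit and 10 had no adjusted p from DESeq2. Most of the 1350 values were uncalled in the main fit, and many fits left out a library outside the arms compared. The total therefore says little about the calls. Every call of the 9 genes was lost in at least 1 fit that left out a library. The cause of the changes was not tested. With DESeq2 size factors in edgeR no count of called members changed. With no filter on low counts, 2 members were called in the anti-LAG3 arm mean and 3 in the combination arm mean. With DESeq2's Wald test, 0 members were called in the anti-PD1 slope, where IER3 had no adjusted p (unadjusted p 0.00165), and 1 in the anti-PD1 arm mean. With the T minus B marker covariate, 0 members were called in the anti-PD1 slope and 0 in the anti-LAG3 arm mean. Against 0 instead of isotype, 5 members were called in the combination slope, and the slopes of ZFP36 and BTG2 turned to 0.034 and 0.014. Leaving out 1 library at a time gave -0.33 to 0.047 for ZFP36 and -0.063 to 0.047 for BTG2 in the combination slope.

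Those fits called 0 to 1 members in the anti-LAG3 slope, 0 to 1 in the anti-PD1 slope, 0 to 4 in the combination slope, 0 to 1 in the combination minus anti-PD1 slope, 0 to 2 in the anti-LAG3 arm mean, 0 to 1 in the anti-PD1 arm mean and 0 to 4 in the combination arm mean. Over all genes they called 1 to 24 (11 with all libraries), 0 to 122 (41), 34 to 955 (719), 6 to 147 (100), 424 to 2044 (1560), 0 to 1044 (594) and 0 to 271 (1) in the same order, and 8 to 181 (119) in the combination minus anti-LAG3 slope and 0 to 295 (133) in the isotype slope. With no filter the counts were 71 for the anti-LAG3 slope, 196 for the anti-PD1 slope, 207 and 170 for the combination minus anti-LAG3 and minus anti-PD1 slopes, 398 for the isotype slope and 145 for the combination arm mean. DESeq2 called 290 genes in the combination slope, 57 and 58 in the combination minus anti-LAG3 and minus anti-PD1 slopes and 18 in the combination arm mean. The covariate gave 44 for the anti-LAG3 slope, 26 for the combination minus anti-PD1 slope, 21 for the anti-LAG3 arm mean and 0 for the combination arm mean, and the anti-LAG3 slope against 0 gave 28.

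The same doses recur in each arm, and the arm means carry dose as a block. With no replicate block the ZFP36L1 anti-LAG3 difference was -0.18 (edgeR adjusted p 0.0477), and the calls of members were the same, while genes called were 1465, 518 and 0 in the anti-LAG3, anti-PD1 and combination arm means. With 1 library per condition, PHLDA1 is limited by depth, at 39 to 158 counts.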
